A study of Homo sapiens with 12 samples.

Results

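N4-acetylcytidine (ac4C) sites in the 3' UTR, the untranslated stretch of a messenger RNA after the stop codon, were examined in HK-2 cells. The cells were labelled as wild type or as knockout of the acetyltransferase NAT10. The sites are the rows that the authors annotated as 3' UTR in their 6 lists of acetylated sites in messenger RNA. They number 9427 of 100763 sites over the 6 lists. The remaining sites lie in the coding sequence (56841), at the start codon (14219), at the stop codon (13626) or in the 5' UTR (6650), by the same annotation. HK-2 is an immortalised human cell line from the epithelium of the renal tubule, and the series title places the study in renal fibrosis. The 12 samples are 3 pairs of wild-type control and 3 pairs of NAT10 knockout cells, each pair made of RNA pulled down with an antibody against ac4C (IP) and the starting RNA (input). The wild-type lists are called WT and the knockout lists KO below, numbered by replicate. The sample labels name the genotype a knockout, whereas the series text names a knockdown. The labels give neither the way NAT10 was disrupted, nor whether the cells were 1 clone, nor any treatment. They do not say that replicates were separate cultures, so the p-values reflect the spread among these samples only, and that spread may be technical.

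ac4C is a cytidine that carries an acetyl group on its base, and NAT10 is the enzyme that places it on ribosomal RNA and, with THUMPD1 as its adaptor, on transfer RNA. In messenger RNA the mark has been linked to RNA stability and to translation, with a reported dependence on where in the transcript it lies. The 3' UTR is the part of a transcript that is not read by the ribosome and that binds microRNAs, their Argonaute partners and the proteins that set decay, storage and location of the RNA.

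A site is an interval in which the authors' peak caller found more IP than input reads, at a score of at least 50 (10 times the negative log10 of its p-value) and a fold enrichment of IP over input of at least 2. All scores and fold enrichments below are the authors' own values per site, and each list was called separately, so they are set side by side between lists without a test. The authors' false discovery rate was high: its lowest value for any site of any list was 11.3%, and its median for 3' UTR sites ran from 49.2% to 83.0% between lists. The lowest value was 42.6%, 38.9% and 29.2% in WT 1, 2 and 3. In KO 1, 2 and 3 it was 14.1%, 16.1% and 11.3%, so here the genotypes did not overlap. The part that this has in the comparisons of genotypes was not tested. In KO 1 the gene columns stood in another row order than the coordinates and were rejoined, which left 29 of its 1193 3' UTR sites without a gene. The files give no strand, so where genes on opposite strands overlap a site could belong to either. A site shows IP enrichment and not the amount of the transcript, and a gene too weakly transcribed to be sampled would have no site. Transcript levels were not analysed here.

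NAT10 itself was looked at first, although sites on its transcript measure IP enrichment and not the loss of the enzyme. NAT10 had no 3' UTR site in any list. In other parts of its transcript, WT 1, 2 and 3 had 11, 11 and 8 sites and KO 1, 2 and 3 had 2, 5 and 9, so the genotypes overlapped. THUMPD1 also had no 3' UTR site, and 1 site in another part in each WT list and none in a KO list. Of 15 proximal tubule markers, 13 had a site of any part in some list. AQP1, the water channel, and SLC34A1, the phosphate transporter, had none. The number of these markers with a site was 7, 7 and 8 in WT and 9, 9 and 10 in KO. MME, the membrane protease neprilysin, had 3 sites in each WT list and none in a KO list, and LRP2 and CDH16 had 1 in each WT list alone. The reverse held for DPP4 (1, 2 and 3 sites), CDH6 (1, 2 and 1), HAVCR1 and KRT18 (1 in each KO list), which had no site in WT. Of 12 markers of podocytes, other nephron segments, endothelium, blood and stroma, PDGFRB alone had sites, 4 to 6 per list.

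The number of 3' UTR sites overlapped between the genotypes, whereas their share of a list was lower in each KO list than in each WT list. The WT lists held 1706, 1677 and 1586 of them (1656 ± 62.6, SD, n = 3) and the KO lists 1193, 1566 and 1699 (1486 ± 262, SD, n = 3). The difference of −170 sites did not pass a two-sided exact permutation test (p = 0.4, where 3 lists against 3 allow no p under 0.1). KO 1 carried most of this difference, which was −23.8 sites without it. As a share of all sites of a list, they were 9.73%, 9.80% and 10.4% in WT and 8.63%, 8.76% and 8.88% in KO. All KO lists lay below all WT lists (8.76% ± 0.122 against 9.97% ± 0.354, SD, n = 3 each). The exact permutation p was 0.1, the smallest possible, and 0.167 after Benjamini-Hochberg adjustment over the 5 statistics per list that were compared.

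They lay in 1458, 1442 and 1353 genes in WT and in 1053, 1365 and 1464 genes in KO. The groups overlapped, and the difference of −124 genes (exact permutation p = 0.7) was −3.17 genes without KO 1. Most of these genes had 1 such site: 1168 to 1260 genes per WT list and 954 to 1269 per KO list. Genes with 3 or more numbered 42, 36 and 39 in WT and 9, 25 and 35 in KO. No list held a gene with more than 5, a number that FMNL3, a formin that builds actin filaments, reached in each WT list. The mean number per gene with a 3' UTR site was 1.168 ± 0.00484 for WT against 1.138 ± 0.0288 for KO, given as mean ± SD of 3 lists each, with an exact permutation p of 0.1. The difference of −0.0307 was −0.0145 without KO 1.

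The median length of 3' UTR sites was 265, 263 and 258 bases in the WT lists and 282, 268 and 266 bases in the KO lists. The KO lists lay above the WT lists by 10 bases on average (exact permutation p = 0.1), or by 5 bases without KO 1. Between 44 and 60 sites per list were over 1000 bases long. Set against the other parts within each list, 3' UTR sites were intermediate in length. Over the 6 lists their mean of the medians was 267 ± 8.10 bases (SD, n = 6), which was 150 bases above coding sites, 101 above 5' UTR sites and 44 above start codon sites, while the difference from stop codon sites was −71.4 bases. Each of these differences had the same sign in 6 of 6 lists, with a two-sided exact sign-flip p of 0.031, the smallest that 6 lists allow, also after adjustment over the 12 tests of this kind. The 6 lists are not fully independent here, because lists of 1 genotype shared most of their sites.

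Enrichment at 3' UTR sites was the lowest of the 5 transcript parts. The median fold was 6.40, 6.51 and 6.65 in the WT lists, against 7.28, 6.14 and 6.50 in the KO lists. Averaged over the lists it was 6.58 ± 0.381 (SD, n = 6), against 7.25 for coding sites, 7.56 for stop codon sites, 8.91 for 5' UTR sites and 9.07 for start codon sites. The 3' UTR median was the lower one in 6 of 6 lists against each other part, with mean differences of −0.674, −0.982, −2.33 and −2.50 in that order (exact sign-flip p = 0.031 each, also adjusted). With only sites of a fold of at least 4, the differences from 5' UTR and from coding sites no longer passed (exact p = 0.0625). The distribution was wide: 38, 40 and 47 sites in the WT lists, against 42, 34 and 39 in the KO lists had a fold of at least 100.

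Sites in the 3' UTR overlapped sites of the other genotype less than sites of any other part did. A 3' UTR site overlapped a site of any part in a list of the other genotype, by at least 1 base, in 17.5%, 17.3% and 18.5% of cases in the WT lists and in 16.5%, 16.3% and 17.2% in the KO lists, each value being the mean over the 3 opposite lists. The same share was 24.8% to 27.0% for coding sites, 24.4% to 30.8% for 5' UTR sites, 30.8% to 34.0% for stop codon sites and 37.0% to 41.1% for start codon sites. No list's 3' UTR value reached the lowest value of any other part. The mean of 17.2% ± 0.787 (SD, n = 6) differed from that of coding sites by −8.65 percentage points, from 5' UTR sites by −10.4, from stop codon sites by −15.2 and from start codon sites by −21.9, with the 3' UTR lower in 6 of 6 lists each (exact sign-flip p = 0.031, also adjusted). The WT and KO values come from the same pairs of lists, seen from either side. The 6 values are therefore not independent, and this p overstates the support. Within a genotype the picture was another: 84.0%, 85.0% and 88.7% of WT sites and 87.8%, 75.8% and 70.3% of KO sites in the 3' UTR overlapped a site of a same-genotype list, a range shared with the other parts.

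**Figure D1:**
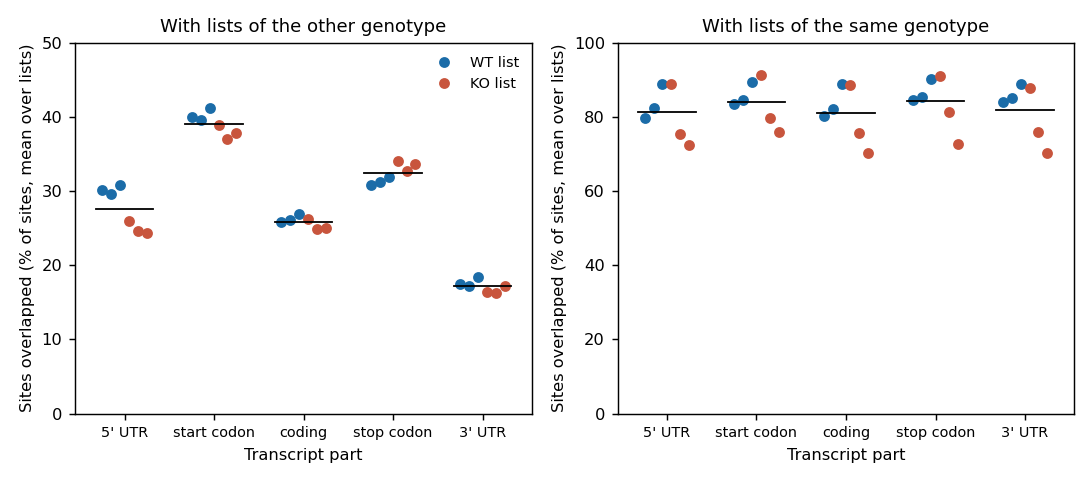
Percentage of sites overlapped by a site in lists of the other genotype (left) and of the same genotype (right), by transcript part, with 1 point per list and a black line at the mean of the 6 lists. The axes differ in range: with the other genotype the 3' UTR points lie between 16.3% and 18.5%, below all points of the other parts, whereas with the same genotype all parts lie between 70.3% and 91.3%.

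Among sites of 200 to 300 bases only, a comparison added after the data were seen, the 3' UTR mean was 11.1% against 20.5% at the stop codon, 29.9% in the 5' UTR, 32.6% in the coding sequence and 37.9% at the start codon. When the midpoint of a site had to fall in a site of the other list, also added later, it was 12.5% against 23.3% to 35.2%.

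Overlapping 3' UTR sites of the 6 lists, sharing 1 base or more, were joined into regions, which gave 3681 of them. A region was counted for a genotype where all 3 of its lists held a site and no list of the other genotype did. No region can pass a test by itself with 3 lists against 3, so regions were counted and not tested. Of the 3681 regions, 993 (27%) were in all WT lists and no KO list, 778 (21.1%) in all KO lists and no WT list, and 114 (3.1%) in all 6 lists. Without KO 1 the counts were 1002 regions of the WT lists and 1082 of the KO lists. A KO region then needed a site in fewer lists than a WT region, so these counts cannot rank the sides. For regions built from sites of all parts, the shares were 21.8%, 20.9% and 8.07% of 35919. For coding regions alone they were 21.6%, 20.3% and 6.78%. The all-6 share was 7.19% for 5' UTR, 8.48% for stop codon and 12.4% for start codon regions. Of the 1240 3' UTR regions present in every WT list, 80.1% were absent from every KO list, and of the 940 present in every KO list, 82.8% were absent from every WT list. The matching shares over all parts were 62.1% and 65.2%.

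The Jaccard index gives, for a pair of lists, the shared regions as a fraction of all regions that the pair holds. For 3' UTR regions it lay between 0.550 and 0.751 in the 6 pairs of lists of 1 genotype and between 0.0631 and 0.0847 in the 9 pairs across genotypes. The lowest pair within a genotype was KO 1 with KO 3. The mean within genotypes was 0.665, close to the 0.666 to 0.704 of the other parts, while the mean between genotypes was 0.0753 against 0.143 to 0.228 for the other parts. Pairs share lists, so these values carry no test.

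**Figure D2:**
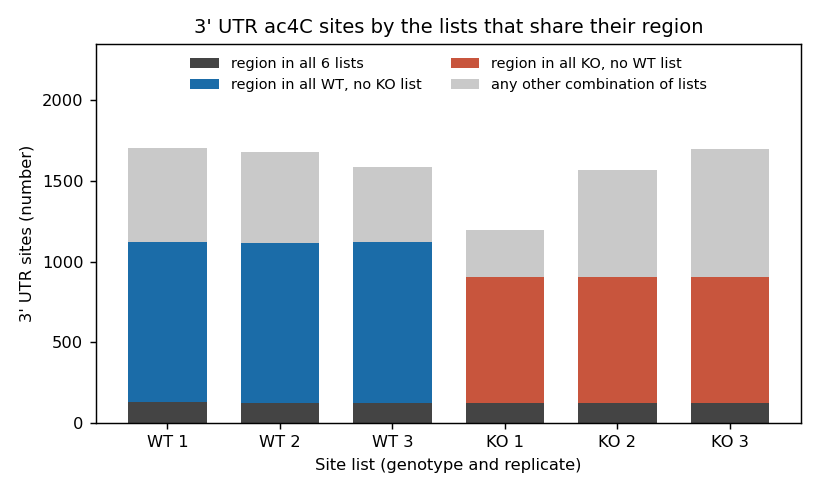
Number of 3' UTR sites in each list (bars, WT and KO replicates 1 to 3), stacked by the lists that share the site's region. The 114 regions found in all 6 lists take 122 to 126 sites of every list, and the regions of 1 genotype take the largest block in all lists but KO 3, where sites of any other combination number 794 against 781.

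Sites in the 114 shared regions were longer than the rest and had a median fold of 8.13 to 10.9 per list, with median lengths of 313 to 448 bases. The part that length has in their being shared was not tested for this class. Sites in regions of 1 genotype had a median fold of 7.23 to 8.84 and median lengths of 248 to 266 bases. Sites of all other combinations, found in some lists of a genotype but not in all, had a median fold of 4.35 to 5.21. The classes themselves depend on whether a site was called in every list of a genotype, which favours strong sites, so these values describe the classes and carry no test.

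The genes behind these regions mostly had sites in both genotypes. Of the 993 regions of the WT lists, 786 (79.2%) lay in a gene with a site in at least 1 KO list, and 272 (27.4%) in a gene with a KO site elsewhere in the 3' UTR. A KO site annotated to another part overlapped 58 of them (5.84%). Of the 778 regions of the KO lists, 528 (67.9%) lay in a gene with a WT site, 193 (24.8%) in a gene with a WT site elsewhere in the 3' UTR, and 19 (2.44%) overlapped a WT site of another part. The genes of 207 WT regions and of 250 KO regions had no site at all in the other genotype. The same shares were not worked out for regions of other parts, so they cannot be read as particular to the 3' UTR.

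Counted by gene, 2815 genes had a 3' UTR site in at least 1 list. Of these, 677 (24%) had one in all WT lists and no KO list, 547 (19.4%) in all KO lists and no WT list, and 235 (8.35%) in all 6 lists. Without KO 1 they were 688 genes of the WT lists and 763 of the KO lists, where a KO gene likewise needed a site in fewer lists. For a site of any part, the shares over 10249 genes were 11.8%, 14.6% and 38.4%. Most genes here held 1 site in the 3' UTR, and the part that the number of sites per gene has in these shares was not tested. For the 4347 genes with a stop codon site the shares were 21.7%, 19.8% and 10.4%, and for the 2013 with a 5' UTR site, fewer than have a 3' UTR site, they were 17.8%, 20.6% and 10.8%. Of the 677 genes of the WT lists, 479 (70.8%) had a site in another part in a KO list and 357 (52.7%) in all 3 KO lists. Of the 547 genes of the KO lists, 311 (56.9%) had a site in another part in a WT list and 234 (42.8%) in all 3. No matching shares were worked out for genes with sites of the other parts.

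Genes with a 3' UTR site in all 6 lists often had it at different places. In 96 of the 235 genes (40.9%), no WT 3' UTR site touched a KO 3' UTR site of the same gene. The nearest pair was then a median of 542 bases apart, with quartiles at 292 and 1206 bases, and 31 genes had a gap over 1000 bases. Only 111 of the 235 genes had a region that all 6 lists shared.

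Genes with a 3' UTR site were also examined for a stop codon site in the same list. Among genes with a 3' UTR site, 24.9%, 23.6% and 22.5% in WT and 16.1%, 20.9% and 23.1% in KO also had a stop codon site, against 26.7% to 31.3% of all genes with a site in those lists. A gene can enter the latter group through its stop codon site alone, so this comparison favours a lower share among genes with a 3' UTR site. Where both occurred, the median genomic gap from the 3' UTR site to the nearest stop codon site was 1141 to 1244 bases in the WT lists and 1236 to 1368 bases in the KO lists. Between neighbouring 3' UTR sites of a gene the median gap was 649, 700 and 652 bases in WT and 959, 875 and 886 bases in KO, and here the genotypes did not overlap. In each list, 32.2% to 45.9% of the genes with a 3' UTR site had no site in any other part, with KO 1 the highest.

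The following genes were taken by rank, from the lowest of a gene's 3 highest 3' UTR folds per genotype. Their coordinates are printed as the authors' files give them, in a build that the sources used here do not give and that is not GRCh38 by the gene spans tested. In the WT lists, the leading gene was ATPAF1, which helps to assemble the mitochondrial ATP synthase. Its best 3' UTR site, at chr1:47099612-47100156, had a fold of 950.0, 1189 and 1257 in the WT lists, and no KO list had a 3' UTR site in the gene. ATPAF1 also had a stop codon site in all 6 lists, so the genotypes no longer differed in it when stop codon sites were counted with the 3' UTR.

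TBC1D20, a Rab GTPase-activating protein of membrane traffic, had a fold of 1183, 939 and 1443 at chr20:416503-416710 in WT. PDE4A, which breaks down cyclic AMP, had 1003, 830.1 and 936 at chr19:10579556-10579840. Neither gene had a KO site in the 3' UTR, while PDE4A had 3, 4 and 5 coding sites in the KO lists against 1 in each WT list. BCL9L, a coactivator of beta-catenin in Wnt signalling, had 753, 935 and 869 at chr11:118767032-118767342 in WT, with 2 stop codon sites in each WT list and 1 in each KO list, so that it too was in all 6 lists under that count. PGGHG, an enzyme that removes glucose from the hydroxylysine sugars of collagen, had 1337, 896 and 692 at chr11:295054-295472. MYO5A, a myosin that carries vesicles along actin, had 1052, 662 and 1095 at chr15:52600622-52600884. These genes were chosen for their high folds, and the list medians for comparison were 6.40 to 6.65. PGAP6, C8orf33, FGD4 (an exchange factor for the GTPase Cdc42) and SHISAL1 completed the 10 leading WT genes, with folds from 280.5 to 880.0. MCCC2, a subunit of an enzyme of leucine breakdown, and CENPO, a centromere protein, had 3' UTR folds of 178 to 236 and 166 to 240.3 in WT and sites of other parts in all 6 lists.

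In the KO lists, the leading gene was PLEKHG5, with a fold of 504, 565 and 705 at chr1:6526152-6526350 and no 3' UTR site in WT. PLEKHG5 had 2, 3 and 3 coding sites in WT and 1, 3 and 3 in KO, so its coding sites overlapped between genotypes where its 3' UTR site did not. PPM1F, a phosphatase that acts on calmodulin-dependent kinases, had 2, 3 and 3 sites in the 3' UTR in KO. The best of them, at chr22:22273903-22274137, had a fold of 339, 796 and 841. CAMK2B, a subunit of such a kinase, was on the same list of leading KO genes, with 168, 152 and 178.

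SYT13, a synaptotagmin, had 301, 259.6 and 362 in KO. CCPG1, a receptor that directs endoplasmic reticulum to autophagy, had 246, 256 and 231. The CCPG1 values differed little between the KO lists, and neither SYT13 nor CCPG1 had a 3' UTR site in WT. WNT7B, a secreted Wnt ligand, had 273, 222 and 215 at chr22:46316248-46316882. In WNT7B the WT sites lay at the stop codon, 2 in each WT list, where no KO list had one, so it was in all 6 lists when both parts were counted. SLC19A1, the reduced folate carrier, had a KO fold of 122.6, 117 and 111. Unlike WNT7B, it had a stop codon site in all 6 lists, so it too had no difference when both parts were counted. RELCH, which acts in cholesterol transfer, DIRAS1 (a small GTPase of the Ras family), JPH2 (a junctophilin) and SPATA13 completed the 10, with folds from 121 to 408. The highest value was 841 among the 10 KO genes and 1443 among the 10 WT genes, and the highest 3' UTR fold of any gene was also larger in WT, at 2811 to 3174 in the WT lists against 1376 to 1459 in the KO lists.

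**Figure D3:**
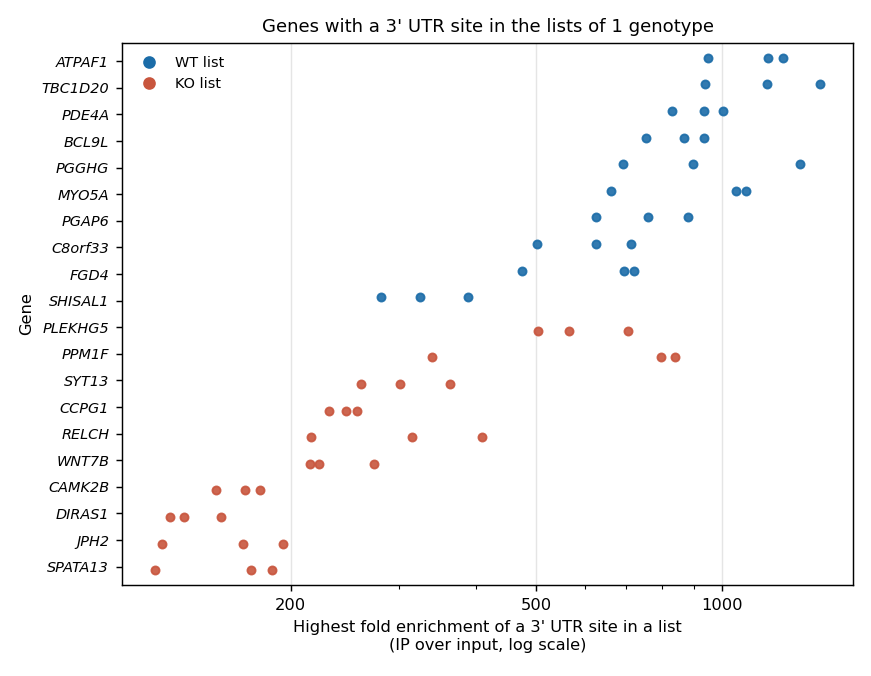
Highest fold enrichment of a 3' UTR site (log axis) in each list for the 10 leading genes of the WT lists and the 10 of the KO lists, with 1 point per list and no point where the list has no 3' UTR site in the gene. Each gene has 3 points of 1 genotype, and the WT genes reach 1443 where the KO genes reach 841.

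Some genes had strong 3' UTR sites in all 6 lists. PDPK1, the kinase that switches on AKT, had a fold of 192, 337 and 318 in WT and 84.6, 74.3 and 91.2 in KO, in a region at chr16:2649072-2650363 shared by all lists. RAP1GAP2, which switches off the GTPase Rap1, had 282, 353 and 358 in WT and 44.3, 56.2 and 47.4 in KO. In both genes each WT value lay above each KO value. SLC6A6, the taurine transporter, went the other way, with 49.2, 58.1 and 56.9 in WT and 75.01, 81.0 and 82.4 in KO. DCTN3, a subunit of dynactin, had 28.2, 25.1 and 27.2 in WT and 35.6, 27.9 and 28.5 in KO, so the genotypes were close and overlapped. NDOR1, an enzyme of iron-sulphur protein assembly, was at 42.7 to 59.6 in WT and 71.6 to 195 in KO, and EVC, a ciliary protein of hedgehog signalling, at 55.9 to 91.1 and 32.4 to 43.4. The other genes of this rank were SHB, an SH2 adaptor, CLCN6, a chloride transporter of late endosomes, PPARGC1B, a coactivator of mitochondrial genes, and TMEM120B. For EVC, SHB, CLCN6 and PPARGC1B the best site was not in a region shared by all 6 lists. The nearest WT and KO sites lay 291, 603 and 522 bases apart in SHB, CLCN6 and PPARGC1B, and touched or overlapped in EVC.

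KMT2B, a histone H3 lysine methyltransferase, had the widest gap among the named genes with a 3' UTR site in all 6 lists. Its 3' UTR fold was 2303, 2811 and 3112 in the WT lists, against 17.9, 10.4 and 16.5 in the KO lists. The WT values belonged to a region at chr19:36229183-36229779 that had no KO site, and the KO values to a region at chr19:36223434-36224409 that had no WT site. The nearest WT and KO 3' UTR sites of KMT2B nonetheless touched or overlapped. FBXL18, an F-box protein, had 4 sites in the 3' UTR in each WT list and 2, 2 and 1 in KO. At its region chr7:5518699-5519439, shared by all 6 lists, the fold was 108, 174 and 198 in WT and 5.90, 5.48 and 4.07 in KO. FMNL3 had 5 in each WT list and 0, 0 and 1 in KO. CASTOR2, a relative of the arginine sensor of the mTORC1 pathway, and TMEM120B completed the 5 genes with the most 3' UTR sites.

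Genes of pathways that matter in tubular injury were then followed through 14 lists of genes, of which 11 are functional groups and the others the ac4C machinery and the cell markers above. Their members were counted only by presence, beside the shares over all genes with a 3' UTR site, and no list was tested. The TGF-beta and SMAD list, the main signalling route of fibrosis, had 51 members, of which 15 had a 3' UTR site. The number with a site was 4, 6 and 6 in the WT lists, against 7, 11 and 10 in the KO lists, so every KO list held more than every WT list. The difference of means, 4.00 members, was 2.33 with only sites of a fold of at least 4. With a site of any part the list had 24, 25 and 21 members in WT and 24, 30 and 29 in KO, where the genotypes overlapped. Of the 15, 5 were in all KO lists and no WT list (19.4% over all genes), 1 in the reverse (24%) and 2 in all 6 lists (8.35%).

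The 5 KO members span the pathway. ACVR1B, a type I receptor for activins, had a fold of 8.10, 13.6 and 12.6 at chr12:52388210-52388506. SMAD3, the transcription factor that carries the TGF-beta signal to fibrosis genes, had 12.9, 8.94 and 11.97 over a long site at chr15:67486174-67487412. SMAD1, its counterpart for bone morphogenetic proteins, had 7.65, 4.62 and 6.60 at chr4:146479351-146479696. No WT list had a 3' UTR site in any of these genes. The inhibitors were SMAD7, which blocks the receptors, at 3.34, 3.51 and 2.85, and SKI, which represses SMAD targets, at 18.2, 17.2 and 20.5 (chr1:2240067-2240866). SMAD7 had no site left at a fold of at least 4, and SKI was no longer a gene of the KO lists when stop codon sites were counted with the 3' UTR. SMAD1 had a site in 2 KO lists at a score of at least 100 and in 1 when the lists were cut to equal length. BMPR2, the type II receptor for bone morphogenetic proteins, was the WT member, at 10.03, 8.84 and 7.43, and it too lost that status when stop codon sites were counted. SMURF1, a ubiquitin ligase that removes SMADs and receptors, had 15.8, 13.7 and 11.3 in WT and 4.01, 3.43 and 4.65 in KO, with no overlap of the values. The region of its best site was not shared by all 6 lists. ACVR2B, a type II activin receptor, had 4.41 to 5.47 in WT and 3.24 to 6.81 in KO, with its nearest WT and KO sites 848 bases apart.

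Of 39 apoptosis genes, 12 had a 3' UTR site. They numbered 3, 4 and 3 in the WT lists, against 6, 8 and 8 in the KO lists, with 4 in all KO lists and no WT list (19.4% over all genes), none in the reverse (24%) and 1 in all 6 lists (8.35%). With a site of any part, the list had 21, 22 and 20 members in WT and 20, 22 and 23 in KO. XIAP, an inhibitor of caspases, had the strongest of these sites, at a fold of 45.9, 49.6 and 44.7 (chrX:123046991-123047415) in KO and none in WT. CASP8, the initiator caspase of death receptors, had 8.09, 5.32 and 7.16 in KO. BCL2L13, a mitochondrial member of the BCL2 family, had 3.17 to 7.0 and APAF1, the core of the apoptosome, 2.59 to 3.86. APAF1 had no site left at a fold of at least 4, BCL2L13 then had 2 KO lists, and the excess of KO members fell from 4.00 to 2.33. With stop codon sites counted, the genotypes no longer differed in BCL2L13, and CASP8 was in 2 more KO than WT lists. CFLAR, which blocks CASP8, had a 3' UTR site in all 6 lists in a region at chr2:202002747-202003969, at 9.38, 7.54 and 7.23 in WT and 41.3, 32.9 and 35.6 in KO. Inhibitors and effectors of cell death were thus both among the members.

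Of 57 cytokine and inflammation genes, 12 had a 3' UTR site, 2, 4 and 5 in WT and 6, 7 and 7 in KO. All KO lists and no WT list held 3 of the 12 (19.4% over all genes with a 3' UTR site). None was in the reverse group (24%) and 1 was in all 6 lists (8.35%). With a site of any part, the list had 33, 31 and 33 members in WT and 31, 32 and 35 in KO. CX3CL1, the chemokine fractalkine, and TRAF3 and TRAF6, adaptors of receptors that act on NF-kappaB, were in all KO lists and no WT list, with folds of 3.82 to 14.1, 5.71 to 8.71 and 4.38 to 7.14. CX3CL1 was no longer in that group when stop codon sites were counted, and at a fold of at least 4 it had a 3' UTR site in 2 KO lists. CSF1, the growth factor of macrophages, was in all 6 lists. Its fold was 4.00, 3.81 and 4.56 in WT and 25.5, 22.5 and 23.4 in KO, in a region shared by all lists at chr1:110471474-110473563. Of 48 immediate early and p53 genes, 7 had a 3' UTR site. All WT lists and no KO list held 2 of the 7 (24% over all genes), and 2 were in the reverse group (19.4%). ATF3, a transcription factor of stress and injury, had 38.4, 35.8 and 30.0 in WT (chr1:212793481-212793729) and none in KO, a difference that was lost when stop codon sites were counted. NR4A3, a nuclear receptor of the immediate early response, had the reverse, with 66.3, 48.4 and 51.1 in KO (chr9:102627025-102627271). MDM2, the ligase that removes p53, had 2.61 to 6.36 in KO, and KLF6, a zinc finger factor, 2.06 to 2.25 in WT, which is near the authors' minimum of 2. With only sites of a fold of at least 4, MDM2 had a site in 2 KO lists.

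Of the 75 genes of the extracellular matrix, the end product of fibrosis, 59 had a site of some part and 8 a 3' UTR site, against 2815 of the 10249 genes overall. The number was 1, 3 and 4 in WT and 5, 2 and 4 in KO. All WT lists and no KO list held 1 of the 8 (24% over all genes with a 3' UTR site), and 1 was in the reverse group (19.4%). COL5A2, a fibrillar collagen chain, had 3.11 to 6.19 in KO alone, and P4HA2, a collagen prolyl hydroxylase subunit, 3.86 to 6.37 in WT alone. With only sites of a fold of at least 4, COL5A2 had a site in 1 KO list and P4HA2 in 2 WT lists. Of 78 cytosolic ribosomal protein genes, 28 had a site of any part and 3 a 3' UTR site. All KO lists and no WT list held 1 of the 3 (19.4% over all genes), and 1 was in all 6 lists (8.35%). RPS9 had 4.16 to 4.74 in WT and 5.06 to 6.89 in KO in a region shared by all 6 lists, and RPS3A had 6.61 to 7.24 in KO alone.

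Of 99 factors that themselves act on 3' UTRs, 92 had a site of some part and 31 a 3' UTR site, where 2815 of all 10249 genes with a site had a 3' UTR site. They numbered 13, 15 and 13 in WT and 12, 11 and 18 in KO, which overlapped, with 6 in all WT lists and no KO list (24% over all genes), 4 in the reverse (19.4%) and 3 in all 6 (8.35%). On the WT side were UPF1, the helicase of nonsense-mediated decay, at 9.93, 11.3 and 12.7 (chr19:18978119-18979010), PATL1, a decapping factor, at 14.4 to 17.2 (chr11:59404284-59405107), TNRC6B, the partner through which Argonautes silence, at 2.42 to 4.85, and RC3H2, YTHDC1 and LARP4B, at 2.05 to 6.85. RC3H2 and YTHDC1 had no site left at a fold of at least 4. On the KO side were AGO1, an Argonaute, with 2, 4 and 3 sites and folds of 36.3, 25.8 and 25.2 (chr1:36387291-36387534), AGO4, another, at 2.66 to 5.27, SMG1, the kinase that activates UPF1, at 7.23 to 11.0, and CPEB4, which binds cytoplasmic polyadenylation elements, at 8.13 to 13.3. At a fold of at least 4, AGO4 had a site in 1 KO list and TNRC6B in 2 WT lists, and with stop codon sites counted AGO1 was in 2 more KO than WT lists.

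The 3 members in all 6 lists were PUM2, a Pumilio repressor, at 5.73 to 6.88 in WT and 11.5 to 12.1 in KO, RBMS2, an RNA-binding protein, at 4.74, 3.40 and 3.97 in WT and 95.5, 90.2 and 89.7 in KO, and CPEB3, a relative of CPEB4, at 27.2 to 34.0 in WT and 14.6 to 18.2 in KO. The folds of each did not overlap between genotypes, but they came in part from different sites: the nearest WT and KO sites lay 44 bases apart in PUM2 and 516 in CPEB3. For RBMS2 the KO values came from a region at chr12:56986691-56987296, in which WT 1 alone of the WT lists had a site. Of 24 cleavage and polyadenylation genes, which make the end of the 3' UTR, all had a site of some part and 2 a 3' UTR site. Over all genes with a site, 2815 of 10249 had a 3' UTR site. WDR33, the subunit that reads the polyadenylation signal, was in all WT lists and no KO list (24% over all genes), at 4.25 to 5.68.

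**Figure D4:**
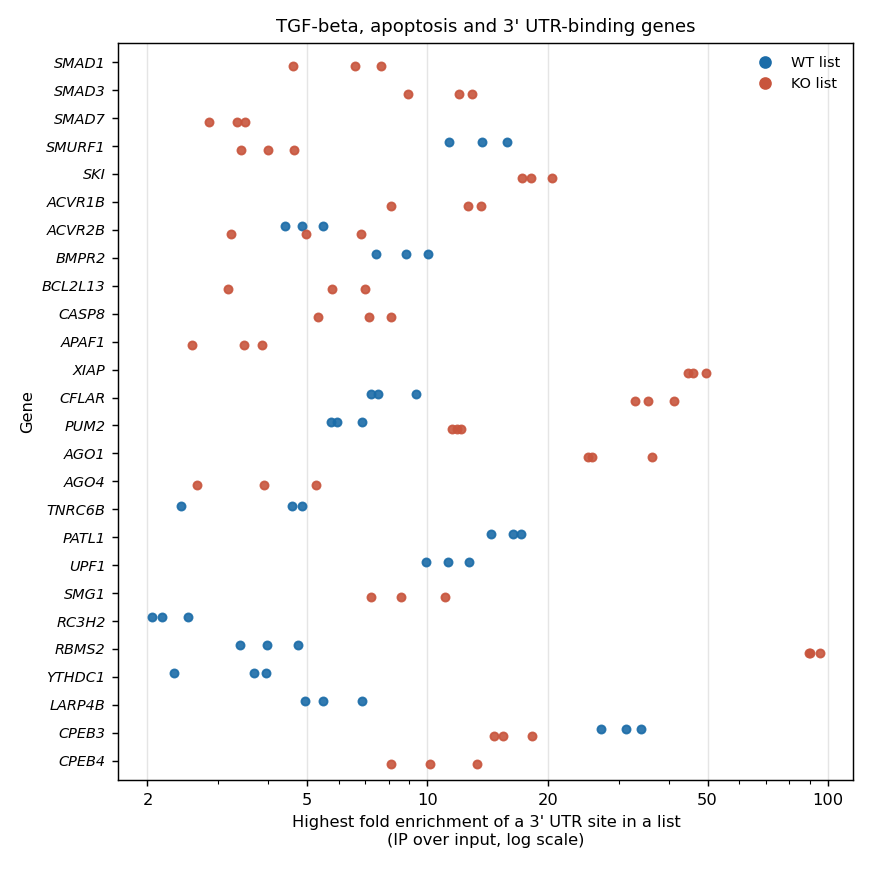
Highest fold enrichment of a 3' UTR site (log axis) in each list for members of the TGF-beta, apoptosis and 3' UTR-binding lists with a 3' UTR site in every list of 1 genotype but no list of the other, or in all 6 lists. Points are lists, and a gene with points of 1 genotype has no 3' UTR site in the other, as XIAP, with KO values of 44.7 to 49.6; RBMS2 spans from 3.40 in WT to 95.5 in KO.

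In glycolysis, 6 of 29 genes had a 3' UTR site. All WT lists and no KO list held 2 of the 6 (24% over all genes with a 3' UTR site), and 1 was in the reverse group (19.4%). PFKFB2 and PFKFB4, isoforms of the enzyme that sets fructose 2,6-bisphosphate, stood on opposite sides: PFKFB2 had 3, 4 and 3 sites with folds of 104, 70.2 and 73.4 in KO (chr1:207249332-207250261), and PFKFB4 had 19.2, 12.4 and 7.12 in WT, a difference lost when stop codon sites were counted. ENO2, an enolase, had 57.7, 84.1 and 57.7 in WT (chr12:7032630-7032861). Of 55 cell cycle genes, 10 had a 3' UTR site, 5, 6 and 5 in WT and 5, 6 and 6 in KO. All WT lists and no KO list held 3 of the 10 (24% over all genes), and 4 were in the reverse group (19.4%). CDC6 and MCM6, which license replication, and CCNB2, a mitotic cyclin, were in the WT lists alone, at 2.09 to 9.43, with CCNB2 without a site at a fold of at least 4. CDC6 then had a site in 1 WT list. CDK6, E2F3, E2F7 and RBL1, the kinase, transcription factors and pocket protein of the G1 to S transition, were in the KO lists alone, at 5.89 to 21.0.

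Of 53 ubiquitin ligases and deubiquitinases, 21 had a 3' UTR site, 10, 10 and 9 in WT and 10, 10 and 10 in KO. Of these, 5 were in all WT lists and no KO list, close to the 24% of all genes (UBR4, TRIM25, USP9X, USP47 and CYLD, at 2.27 to 6.23, with TRIM25 below a fold of 4 throughout) and 4 in the reverse, close to 19.4% (NEDD4L, RNF111, USP15 and XIAP, at 2.08 to 49.6). With only sites of a fold of at least 4, CYLD had a site in 1 WT list, USP47 in 2 WT lists and RNF111 in 1 KO list. WWP2 was in all 6, at 9.66 to 11.6 in WT and 17.2 to 25.7 in KO, with its nearest WT and KO sites 515 bases apart. Among the cell markers, MME had 11.3, 14.0 and 23.4 and PDGFRB 8.73, 6.18 and 5.23 in WT, and PAX8, a transcription factor of the renal lineage, had a 3' UTR site in WT 3 alone.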

How the data were processed

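ac4C-RIP-seq had been done on 12 samples, 3 IP and input pairs per genotype, which the authors turned into 1 list of sites per pair with no pooling of replicates. Cutadapt 1.9.3, HISAT2 2.0.4 and hg38 stand in the submitters' processing notes, with no role stated, and the file headers name MACS columns; the caller's version and settings are not given in the sources used here. Per the file headers, each row of the deposited lists holds a score (10 times the negative log10 of the p-value), a fold enrichment, which is a ratio of IP over input, and a false discovery rate in percent. The lists deposited by the authors hold no read counts, so the depth behind a site is unknown and intervals were not computed. Over the 6 lists 17 rows were empty.

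Rows annotated as 3' UTR were taken from each list. Starts, counted from 0 in the files, are printed 1 higher. In KO 1, coordinates and gene columns agreed in 1 of 13818 rows. They were rejoined on score and length, which placed 13327 rows and left 491. Tested on simulated data made by shuffling the other lists, this rejoined 98.1% to 99.1% of rows, all to the right gene. In the other lists 12.7% to 13.2% of sites lay in the GRCh38 span of their gene. Symbols were updated through RefSeq's table for GRCh38.p14, where 113 to 172 sites per list had no match.

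Regions were sites of the 6 lists merged at 1 shared base, with strand not used. Values per list were compared by two-sided exact permutation tests (3 lists against 3) and parts within lists by exact sign-flip tests over 6 lists, with Benjamini-Hochberg adjustment and a threshold of 0.05, in Python 3.11.15 with pandas 2.3.3, numpy 2.4.6 and matplotlib 3.10.9.

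The genes named are the members of the 14 gene lists with a 3' UTR site in every list of 1 genotype but no list of the other, or in all 6; the 10 genes per genotype, and the 10 in all 6 lists, with the highest value of their lowest best fold over lists, for sites of at least 50 bases; the 5 with the most sites; the 5 per genotype of highest rank with a site of another part in all 6 lists; and NAT10 and THUMPD1. PAX8 was named after its values were seen. The transcript part, the gene lists and the comparisons were chosen with earlier results of these data known. Alternatives were a fold of at least 4, a score of at least 100, sites of at least 50 bases, an overlap of 50% of the shorter site, equal list lengths, stop codon sites counted with the 3' UTR, KO 1 names by overlap, each list left out, and pairing by replicate number.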

Additional observations from a re-analysis of the deposited data

How the results depend on the processing

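The comparisons of genotypes could pass no threshold under any setting, so only their values were followed. Over the settings tried, 8 values moved beyond the limit set (1.5 times for counts, 1 SD otherwise), 74 comparisons of parts no longer passed, and none took the opposite sign. The median fold against 5' UTR and coding sites at a fold of at least 4 made up part of the 74. The rest were settings with a list left out, where no comparison of parts could pass. With stop codon sites counted as 3' UTR, the regions in every list of 1 genotype but no list of the other were 2034 for WT and 1751 for KO, those in all 6 lists 580, and the genes 1253, 1168 and 845, since the set of sites is larger. With a fold of at least 4, the KO minus WT number of members was 2.33 for apoptosis (4.00 with all sites) and 2 for the cell cycle (0.333 with all sites). It was 2.33 for TGF-beta (from 4.00), 2 for cytokines (from 3), 0.333 for the extracellular matrix (from 1), 2 for 3' UTR-binding factors (from 0), 0 for ubiquitin (from 0.333), −0.333 for immediate early genes (from −0.667) and −1.33 for polyadenylation (from −1.67). The median fold against 5' UTR and coding sites differed by −1.48 and −0.403 there (exact p = 0.0625).

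Leaving out each list in turn leaves 5 lists, for which the sign-flip test allows no p under 0.0625, so these comparisons of parts could not pass. The length differences then ran from 99.4 to 103 bases against the 5' UTR, 42.4 to 44.8 against the start codon, 149 to 151 against coding sites and −74.9 to −67.9 against the stop codon. The fold differences ran from −2.71 to −1.998, −2.79 to −2.27, −0.792 to −0.551 and −1.07 to −0.862, and the overlap differences from −11.4 to −9.60, −22.4 to −21.4, −9.05 to −8.41 and −15.8 to −14.4 percentage points, in the same order. Regions of WT alone ran from 1002 to 1165, of KO alone from 786 to 1082 and in all 6 lists from 118 to 152, and genes from 688 to 781, 552 to 763 and 243 to 305. With a list left out, a region or gene had to meet the condition in fewer lists, so a rise in these counts is built in. The difference in the number of sites ran from −277 to −23.8 and in genes from −209 to −3.17, and both were smallest in size without KO 1. The difference in sites per gene ran from −0.0421 to −0.0145.

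Of 97 genes named, the KO minus WT number of lists moved for 23 at a fold of at least 4, 17 at a score of at least 100, 15 at equal list length and 13 with stop codon sites included. SMAD7, APAF1, KLF6, CCNB2, RC3H2, TRIM25 and YTHDC1 had no site at a fold of at least 4 in any list, and ATPAF1, ATF3, BCL9L, BCL2L13, CX3CL1, PFKFB4, SLC19A1 and WNT7B had no difference once stop codon sites counted. Over 112 shared regions, same-numbered lists had correlations of −0.148, −0.0123 and −0.158, and lists of different numbers −0.00864 to 0.182. Whether the replicates were handled as pairs cannot be told from these values. With the numbers as a replicate block, where 3 pairs allow no exact p under 0.25, p was 0.75 for the number of sites, 0.25 for their share, 0.75 for genes, 0.25 for sites per gene and 0.25 for length. Depth could not be assessed, since the lists hold no counts.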

Other observations

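By chromosome, 3' UTR sites made up between 7.50% of sites (chromosome 6) and 11.8% (chromosome 22) over the 6 lists for the chromosomes with at least 1000 sites. Chromosomes 9 and 14, at 11.7% and 11.3%, were next to chromosome 22, and the X chromosome, at 7.85%, was next to chromosome 6. The X chromosome held 106 regions of 3' UTR sites, 28 in all WT lists and no KO list and 17 in the reverse, and none in all 6 lists. Chromosome 1 held the most, with 378 regions, of which 18 were in all 6 lists. Of 233 regions on chromosome 19, 71 were of the WT lists and 34 of the KO lists, and of 51 on chromosome 18, 9 and 18. Over all chromosomes, 27% of the 3681 regions were in all WT lists and no KO list. The reverse held for 21.1%, and 3.1% were in all 6 lists. These are counts of regions, with no test, so no chromosome is set apart by them.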
